A study of Saccharomyces cerevisiae with 31 samples.

Results

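Ribonucleotide reductase, the enzyme that makes deoxynucleotides for DNA synthesis, and its regulators were followed in Saccharomyces cerevisiae, budding yeast, during growth without division. The 8 genes were chosen by name from the 6713 genes of the authors' deposited table of scaling scores, and all 8 were found and scored in every series. They are the subunit genes RNR1, RNR2, RNR3 and RNR4, and the regulator genes SML1, DUN1, CRT10 and WTM1. The 31 libraries fall into 6 series, all grown in rich medium with ethanol and all given 1NM-PP1, a bulky kinase inhibitor. In the Cdc28-as strain the cyclin-dependent kinase Cdc28 is an analog-sensitive variant that this inhibitor blocks. They were sorted by size in a centrifuge (elutriated) and then arrested in experiment 1 (5 libraries, 15.23 to 50.77 fl of cell size), experiment 2 (3 libraries, 14.92 to 41.8 fl) and experiment 3 (3 libraries, 18.61 to 66.46 fl). A time course arrested Cdc28-as cells without elutriation (8 libraries, 21.56 to 44.02 fl). Wild-type (WT) cells, whose Cdc28 the inhibitor does not block, gave an elutriated control (6 libraries, 2 to 7 h) and an unelutriated control (6 libraries, 0 to 6 h). The analog-sensitive allele is a change within the protein, so abundance gives no check of the genotype labels.

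The active enzyme pairs large subunits, which bind the substrate and the regulatory nucleotides, with a small-subunit dimer that carries an iron-bound radical. Rnr1 is the main large subunit, and its gene belongs to the burst of transcription at the G1/S boundary that the factor MBF drives. Rnr3 is its paralogue, kept low until DNA is damaged, and Rnr2 and Rnr4 form the small subunit. The checkpoint kinases Mec1, Rad53 and Dun1 raise enzyme activity. They remove the inhibitor Sml1, release the small subunit from the nucleus and lift repression by Rfx1 (Crt1) from RNR2, RNR3 and RNR4.

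The sequences upstream of the subunit genes and of DUN1 are shown because they hold the letters that these factors are known to read. ACGCGT is the MluI cell cycle box (MCB) of MBF, and TGGCAAC is part of the X box of Rfx1. Both were searched on both strands in the 500 bases before each start codon of the R64 genome from RefSeq, and no match of one overlaps a match of the other in the stretches shown. The choice of TGGCAAC was made after the sequences were read. Capitals mark matches to either motif, and numbers count bases back from the start codon.
RNR1 (chrV:298450-298659, plus strand, 500 to 291 bases before the start codon): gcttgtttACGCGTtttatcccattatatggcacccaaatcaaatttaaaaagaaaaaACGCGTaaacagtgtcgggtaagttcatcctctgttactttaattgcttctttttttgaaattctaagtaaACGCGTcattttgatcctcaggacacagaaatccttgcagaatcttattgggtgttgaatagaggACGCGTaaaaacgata
RNR3 (chrIX:240879-241088, minus strand, 380 to 171 bases before): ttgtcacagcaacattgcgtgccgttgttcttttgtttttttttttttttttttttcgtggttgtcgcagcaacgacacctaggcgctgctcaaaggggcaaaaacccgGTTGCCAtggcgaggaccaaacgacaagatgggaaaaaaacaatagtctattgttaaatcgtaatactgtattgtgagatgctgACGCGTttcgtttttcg
RNR2 (chrX:391954-392053, plus strand, 450 to 351 bases before): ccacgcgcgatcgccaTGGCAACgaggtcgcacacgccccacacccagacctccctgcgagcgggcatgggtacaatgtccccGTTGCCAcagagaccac
RNR4 (chrVII:856662-856701, minus strand, 400 to 361 bases before): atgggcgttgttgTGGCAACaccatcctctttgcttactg
DUN1 (chrIV:281989-282038, minus strand, 190 to 141 bases before): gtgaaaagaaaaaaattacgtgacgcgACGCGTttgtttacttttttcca

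RNR1 held 4 copies of ACGCGT, beginning 492, 442, 371 and 306 bases before its start codon. Of 6000 upstream windows of the same length, 325 (5.42%) held the letters at least once and 34 (0.567%) at least 2 times, and RNR1 was the single window with 4. RNR3 and DUN1 held 1 copy each, and the other 5 genes had none of these letters in the window. TGGCAAC stood 2 times before RNR2 and 1 time before RNR3 and RNR4, against 290 of 6000 windows (4.83%) with at least 1 copy. Because these letters were chosen after the sequences were read, that comparison is no test of enrichment. The stretch shown for RNR2 overlaps YJL027C on the other strand, and the other stretches overlap no protein-coding RefSeq gene. Genes of other kinds were not checked for these stretches. The letters CNCGAAA (SCB), where N is any base, were also searched in these windows and are not marked above. They stood 3 times before RNR3 and 1 time before each of RNR1, RNR2, RNR4 and WTM1. SML1, DUN1 and CRT10 had none. Of 6000 windows, 1320 (22%) held them at least 1 time and 160 (2.67%) at least 2 times. These letters did not set RNR1 apart from the other members. A match of letters is a description of the sequence and not a measured binding site.

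The authors' deposited score was read as the slope of abundance relative to the first library in which the gene has a level above 0, with the unit per fl for Cdc28-as and per hour for WT. No source used here states the formula. The reading rests on genes whose scores equal, within 1e-07, the slope for detection in the first library alone, such as the 104 genes at -0.0197 per fl in experiment 1, and it was assumed for experiment 2 and the time course, where 2 and 3 genes do so. In the WT controls 8 genes (elutriated) and 33 (unelutriated) hold the slope of a gene seen in library 2 and no other, whose level is then the unit. A score of 0 is then a level that stayed the same on the authors' scale, and whether that scale uses the added Candida RNA is not given. The score times the size span is given below as a fitted change, in units of that starting level, called the first-library level. A level in proportion to size would score 0.0657, 0.0670, 0.0537 and 0.0464 per fl in experiments 1, 2 and 3 and the time course. This holds if the score follows an amount per cell and not a share of reads. The percentile is the position of a gene among all genes scored in that series, from 0 (lowest) to 100. One score per gene and series was used, so the spread is that between series, and depth per library is unknown.

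RNR1 (YER070W, chromosome V, 298950 to 301616) scored higher than each other member in all 3 elutriated, arrested experiments. The authors' deposited table gives it 0.441, 0.191 and 0.0746 per fl in experiments 1, 2 and 3. Its percentiles were 99.5, 99.2 and 98.3, a spread of 0.642 percentile points (SD, n = 3 experiments). Only 15 of 5771 genes (0.260%) lay above percentile 95 in all 3, a cut-off chosen after the values were seen, and RNR1 was the single member among them. The fitted change over the size range was 15.7, 5.13 and 3.57 times the first-library level. These scores were 6.71, 2.85 and 1.39 times the slope given above for a level proportional to size. That slope was also exceeded by 12.9%, 8.87% and 3.14% of the genes scored in experiments 1, 2 and 3. Since the scale is not given, whether RNR1 rose more than size per cell cannot be told.

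**Figure D1:**
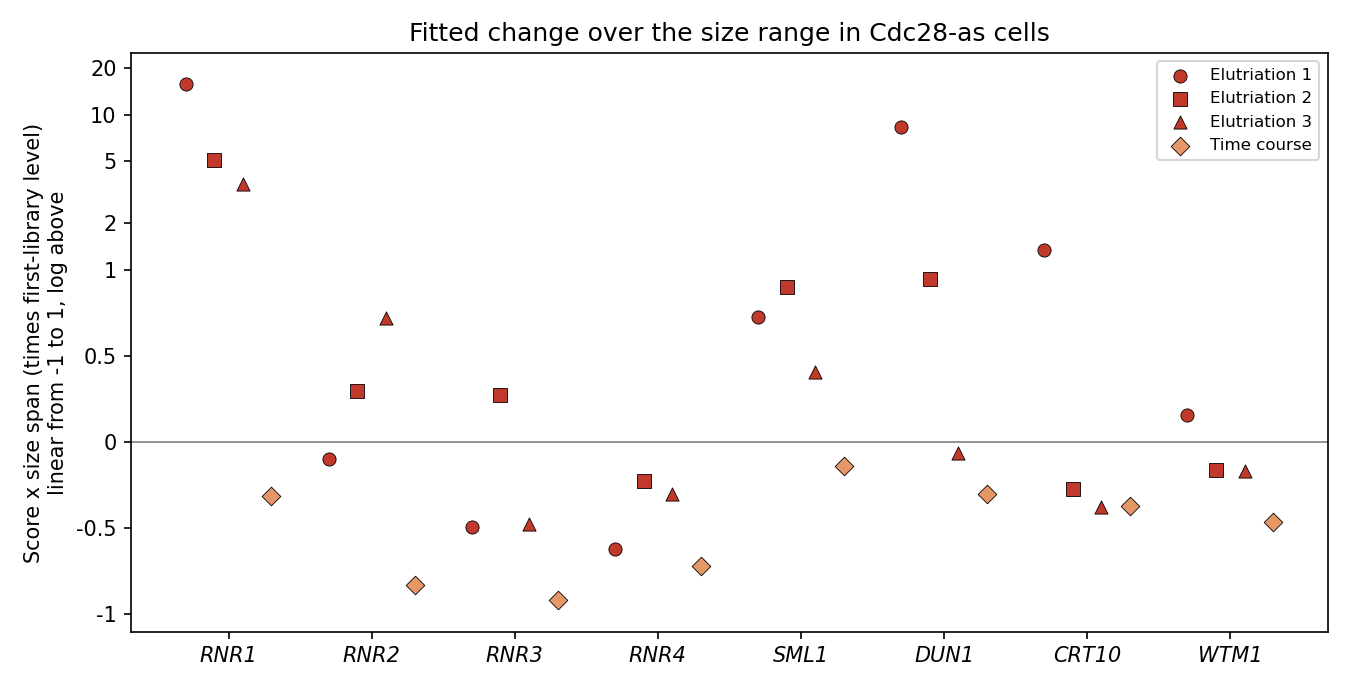
Fitted change of the 8 genes over the size range of each Cdc28-as series, as score times size span in units of the first-library level (vertical axis linear from -1 to 1 and logarithmic above). Circles, squares and triangles are elutriation experiments 1, 2 and 3 and diamonds the unelutriated time course. RNR1 sits at 15.7, 5.13 and 3.57 in the elutriated experiments, and all 8 genes sit below 0 in the time course.

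RNR1 stood apart less in the unelutriated time course. There it scored -0.0140 per fl, a fitted change of -0.313 times the first-library level, at percentile 74.5. The time course gave negative scores to 95.3% of the 6649 genes scored, with a median gene at -0.0201 per fl, so RNR1 still lay above the median gene. In WT cells RNR1 scored 2.56 per hour after elutriation (percentile 84.4) and 0.149 per hour without it (percentile 91.4). It was thus above the median gene in all 6 series.

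RNR3 (YIL066C, chromosome IX, 238099 to 240708), the gene of the other large subunit, lay below the median gene in all 6 series. It scored -0.0139, 0.0102 and -0.00996 per fl in experiments 1, 2 and 3, at percentiles 16.5, 48.8 and 15.2. In the time course it had the lowest score of the 8 genes, -0.0409 per fl at percentile 5.09. The WT scores were 0.0644 per hour after elutriation (percentile 40.1) and -0.131 per hour without it (percentile 13.9). With a median of 4 reads in experiment 1, RNR3 was the one member under 10 reads, and its scores rest on few reads. The coding sequences of RNR1 and RNR3 were identical at 76.8% of 2610 aligned bases, with a longest identical run of 38 bases. No source used here says how reads that match both were treated.

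The small-subunit genes did not share the position of RNR1 in arrested cells. RNR4 (YGR180C, chromosome VII, 855264 to 856301), whose product helps Rnr2 to take up its iron centre, scored -0.0174, -0.00837 and -0.00635 per fl in the elutriated experiments, at percentiles 12.6, 17.04 and 25.3. In the time course it scored -0.0319 per fl (percentile 12.9), so its percentile was 25.3 or less in every Cdc28-as series. RNR2 (YJL026W, chromosome X, 392404 to 393603), which encodes the iron-binding partner, scored -0.00270, 0.0110 and 0.0150 per fl, and its percentiles spread from 33.7 through 50.5 to 80.4. In the time course RNR2 was low, at -0.0369 per fl and percentile 7.60. The fitted change of RNR2 stayed between -0.0961 and 0.720 times the first-library level in the elutriated experiments, and that of RNR4 between -0.619 and -0.225. RNR2 and RNR4 share 67.0% of 1038 aligned coding bases, with no identical run over 14 bases.

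In elutriated WT cells, by contrast, RNR1, RNR2 and RNR4 stood close together in percentile, though their scores differed. RNR2 scored 7.09 per hour (percentile 91.7), RNR4 3.36 per hour (percentile 86.7) and RNR1 2.56 per hour (percentile 84.4). In the unelutriated WT control RNR2 and RNR4 lay below the median gene, at -0.0824 and -0.0621 per hour and percentiles 31.9 and 40.2. To set series with different units side by side, each rank was turned into a normal score, in SD units of a normal curve with the median gene at 0. RNR1 minus the mean of RNR2 and RNR4 was 3.37, 2.86 and 2.02 in experiments 1, 2 and 3, 1.94 in the time course, 1.73 in unelutriated WT and -0.238 in elutriated WT. The mean of the 3 elutriated experiments was 2.75 ± 0.684 (SD, n = 3), with p = 0.25 by a two-sided exact sign-flip permutation test, the smallest p that 3 series allow. With the time course added it was 2.55 ± 0.690 (SD, n = 4), with an exact permutation p of 0.125, again the smallest possible.

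**Figure D2:**
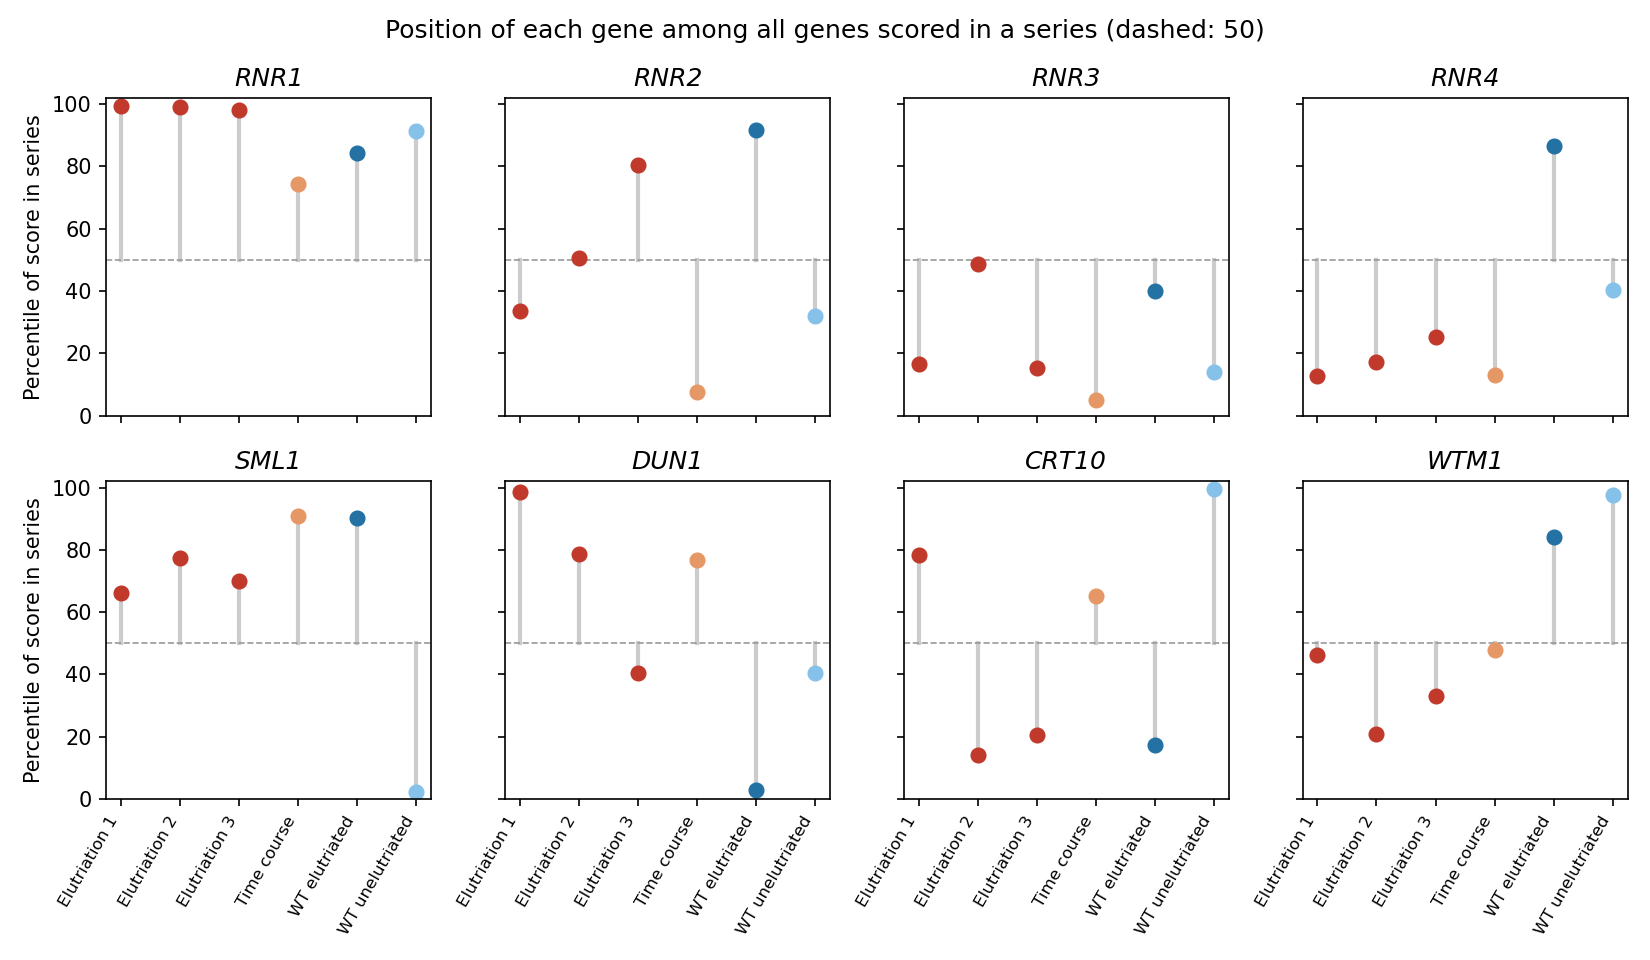
Percentile of each of the 8 genes among all genes scored in a series (vertical axis), in the 3 elutriated Cdc28-as experiments (red), the Cdc28-as time course (orange), and the elutriated (dark blue) and unelutriated (light blue) WT controls; grey bars run from percentile 50. RNR1 is at 98.3 or more in the 3 red series, while RNR4 is at 25.3 or less in the 4 Cdc28-as series and at 86.7 in elutriated WT.

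SML1 (YML058W, chromosome XIII, 159383 to 159697) encodes the small protein that binds and inhibits Rnr1. The gene exceeded the median gene in each of the 4 Cdc28-as series, as did 797 of 5758 genes (13.8%). It scored 0.0205, 0.0334 and 0.00843 per fl in experiments 1, 2 and 3, at percentiles 66.1, 77.3 and 69.8. In the time course its score of -0.00619 per fl was the highest of the 8 genes, at percentile 91.0. The 2 WT series stood at opposite ends, with 5.39 per hour (percentile 90.1) after elutriation and -0.234 per hour (percentile 2.20) without it. Over the span of the unelutriated control the last score gives -1.40 times the first-library level. That is a fitted slope over the span and not a measured loss, which could not pass -1.

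DUN1 (YDL101C, chromosome IV, 280307 to 281848), the kinase gene that acts on Sml1, had the widest range of fitted change among the 4 regulators in the elutriated Cdc28-as experiments, from -0.0628 to 8.28 times the first-library level. It scored 0.233, 0.0352 and -0.00131 per fl in experiments 1, 2 and 3, and its percentiles were 98.4, 78.5 and 40.4. The mean moved with experiment 1, since DUN1 scored 0.0823 per fl over the median gene with it and 0.0108 without it. In the time course DUN1 was at percentile 76.6, and in the WT controls at 2.85 after elutriation (-0.271 per hour) and 40.4 without it (-0.0616 per hour). Its median read count in experiment 1 was 17.5.

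CRT10 (YOL063C, chromosome XV, 207392 to 210265), a regulator known to hold down RNR2 and RNR3 transcription, gave no common direction. It scored 0.0379, -0.0102 and -0.00784 per fl in experiments 1, 2 and 3 (percentiles 78.2, 14.2 and 20.4) and -0.0164 per fl in the time course (percentile 65.3). In unelutriated WT cells it scored 0.792 per hour, at percentile 99.5 and the highest of the 8 genes. In elutriated WT its score of -0.0857 per hour equals, within 1e-07, the slope for a gene detected in the second library alone, a value that 8 genes hold. That score then describes 1 library and no trend.

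WTM1 (YOR230W, chromosome XV, 770800 to 772113) encodes the protein that keeps the small subunit in the nucleus. It scored 0.00445, -0.00597 and -0.00355 per fl in experiments 1, 2 and 3 (percentiles 46.2, 20.8 and 33.2) and -0.0206 per fl in the time course (percentile 48.0). The fitted changes in the elutriated experiments, between -0.170 and 0.158 times the first-library level, covered the smallest range of the 8 genes. Both WT controls were high, at 2.40 per hour (percentile 84.1) and 0.383 per hour (percentile 97.7).

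Read counts gave an order of levels. Per kilobase of coding length, the authors' median read count in experiment 1 was 196 for RNR2, 163 for WTM1, 133 for SML1, 58.3 for RNR4, 14.6 for RNR1, 11.3 for DUN1, 5.92 for CRT10 and 1.53 for RNR3. No spread over libraries can be put on these levels, so neighbours in this order cannot be called different. How the authors took this median is not given. No RefSeq gene overlaps the coding region of any of the 8.

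Across the 3 elutriated experiments, no member passed limma's moderated test of the score over the median gene after Benjamini-Hochberg adjustment over 5771 genes, and 0 (0%) of all genes did. RNR1 scored 0.229 per fl over the median gene with an SE of 0.0790 (n = 3, limma adjusted p = 0.460). Without experiment 1 its mean was 0.127 per fl. It was the 1 member of 8 with an unadjusted limma p under 0.05, against 519 of 5771 genes (8.99%). RNR4 scored -0.0174 per fl with an SE of 0.00668 (limma adjusted p = 0.460), lower than the median gene in 3 of 3 experiments. On normal scores of ranks, where limma also called 0 genes (1272 with an unadjusted p under 0.05), RNR1 had a mean of 2.36 with an SE of 0.335 and a limma adjusted p of 0.0821. RNR1 and SML1 exceeded the median gene in each of the 3, as did 1353 of 5771 genes (23.4%), and RNR3, RNR4 and WTM1 below it, as did 1258 (21.8%). At those shares 8 genes would give between 1 and 2 in either direction, so the counts of 2 and 3 are read as near the background. The labels do not say that the experiments came from separate cultures, so the p values measure the spread between these series. Size and time in arrest cannot be told apart, since the Cdc28-as libraries are labelled with a size and not with a time.

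The difference between arrested and WT cells was tested on normal scores of ranks, with 4 Cdc28-as against 2 WT series. No member passed limma's test adjusted over 5296 genes, nor did any other gene (0%). WTM1, RNR4 and DUN1 had unadjusted p values under 0.05, 3 of 8 members against 740 of 5296 genes (14.0%). WTM1 averaged -0.349 in Cdc28-as and 1.49 in WT series, a difference of -1.84 with an SE of 0.628 (limma adjusted p = 0.225). RNR4 averaged -0.974 and 0.432, a difference of -1.41 with an SE of 0.636 (limma adjusted p = 0.347). In both genes every Cdc28-as series lay below both WT series, which 667 of 5296 genes (12.6%) also showed. DUN1 averaged 0.856 and -1.07, a difference of 1.93 with an SE of 0.743 (limma adjusted p = 0.269), and its groups met at percentile 40.4 in both experiment 3 and unelutriated WT. In 0 of 8 members did every Cdc28-as series lie above both WT series, against 590 of 5296 genes (11.1%). RNR1 was 1.94 in Cdc28-as and 1.19 in WT series (difference 0.748, SE 0.681, limma adjusted p = 0.675). For SML1, RNR2, CRT10 and RNR3 the limma adjusted p values lay between 0.573 and 0.910. For CRT10, 1 of the 2 WT values in this fit is the elutriated score that describes 1 library and no trend. The CRT10 difference is then not a contrast with 2 WT trends.

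**Figure D3:**
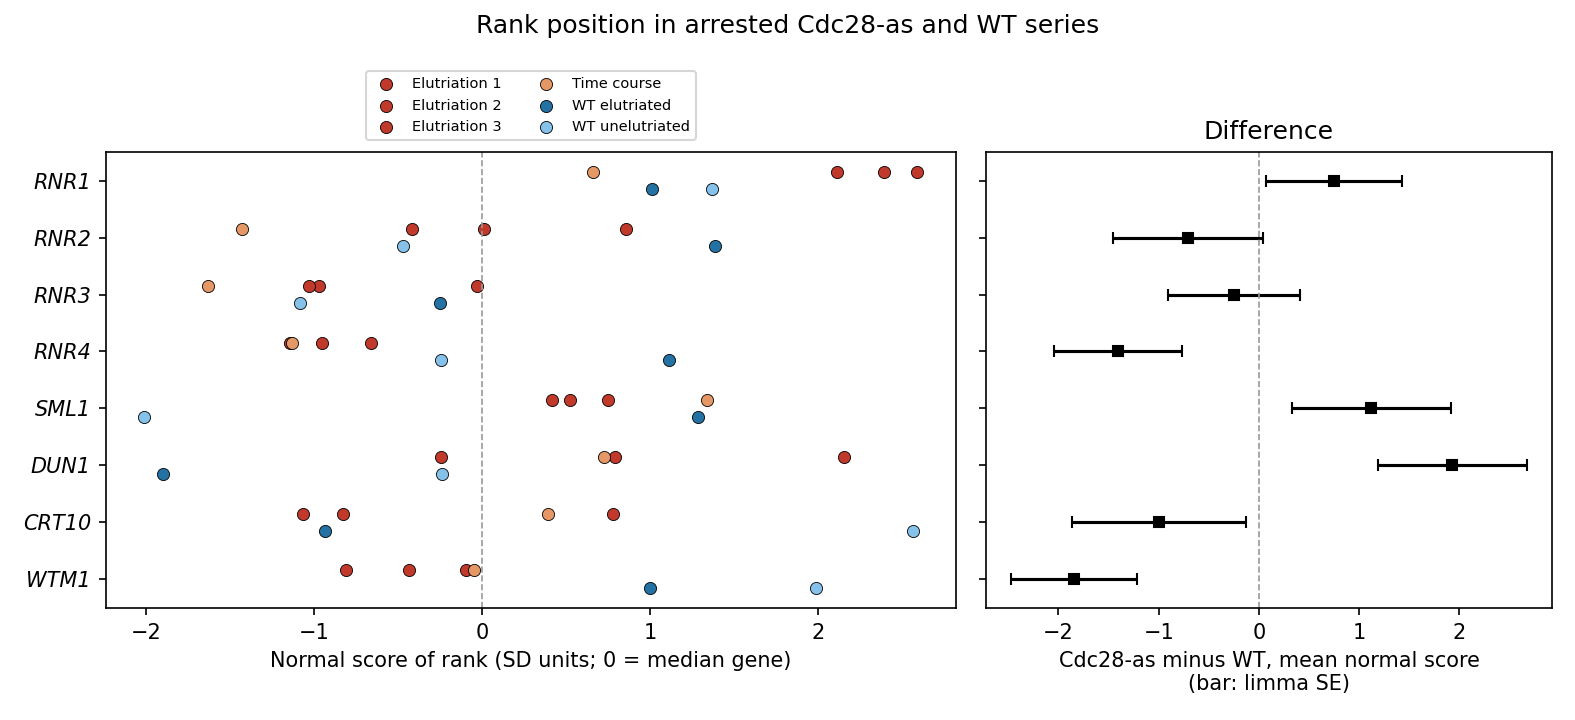
Left, normal score of the rank of each gene (SD units, 0 is the median gene) in the Cdc28-as series (red and orange, upper row of each gene) and the WT series (blue, lower row); right, the Cdc28-as minus WT difference of the means with the limma SE as bar. WTM1 and RNR4 are the genes whose 4 Cdc28-as points all lie below both WT points, and DUN1 has the highest difference, 1.93.

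Genes with several copies of ACGCGT upstream were described in the same way. The 33 genes of the table with 2 copies had median percentiles of 87.3, 73.1 and 76.7 in experiments 1, 2 and 3, against 51.1, 50.6 and 51.2 for the 5658 genes with none. The 291 genes with 1 copy, RNR3 and DUN1 among them, were at 52.8, 56.4 and 50.3. RNR1, with 4, was above all 3 group medians in each experiment. The genes with 2 copies and those with none had medians of 70.6 and 48.9 in the time course, 49.6 and 46.8 in unelutriated WT, and 34.5 and 52.1 in elutriated WT, where the order turned. The genes with 2 copies include 8 replication genes, 4 checkpoint genes and 1 supply gene of the pathway lists described below, so these descriptions share genes. These values were not tested.

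**Figure D4:**
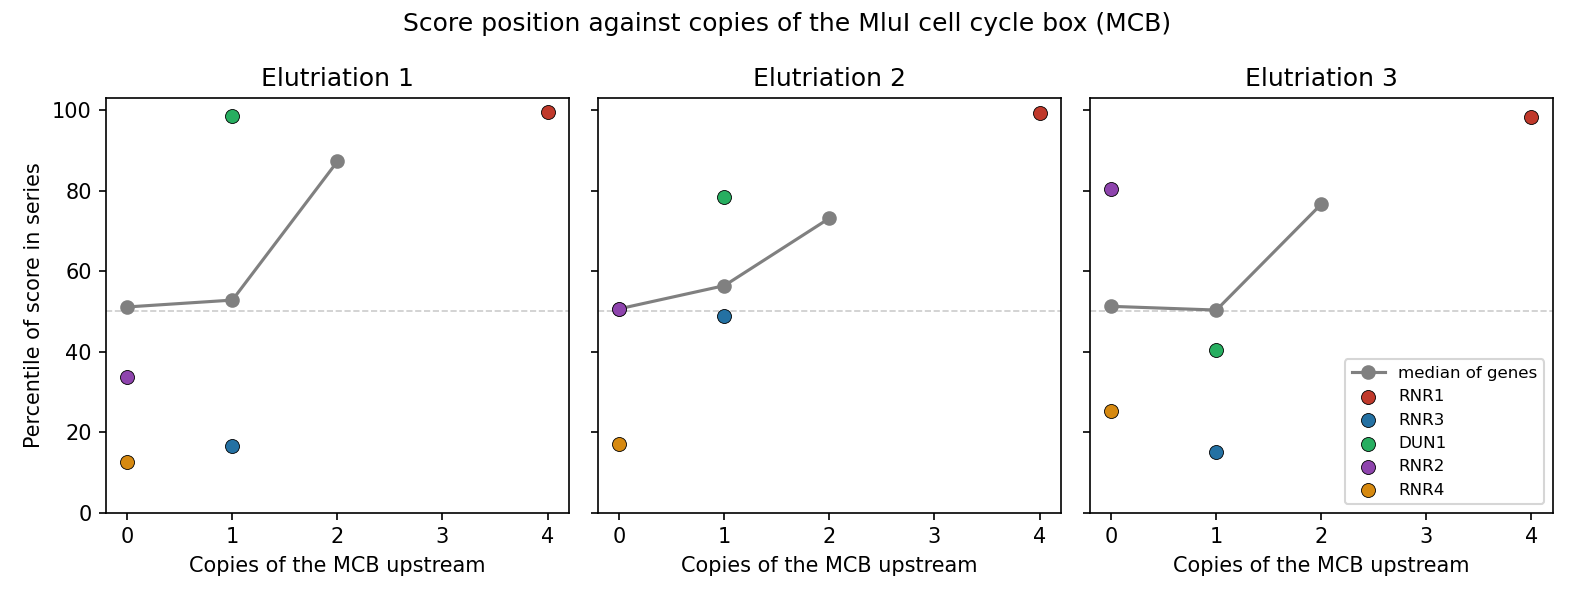
Percentile of the score in elutriation experiments 1, 2 and 3 (vertical axis) against the number of ACGCGT copies (MCB) in the 500 bases before the start codon; grey points are medians of all genes with 0, 1 or 2 copies and coloured points single genes. RNR1 has 4 copies and sits at percentile 98.3 or higher in each panel, while RNR3, with 1 copy, sits at 48.8 or lower.

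Lists of other genes of the pathway were described in the same way, and in each of them limma called 0 genes in either direction. Over all 5771 genes, 1353 (23.4%) were over the median gene in each elutriated experiment and 1258 (21.8%) under it, and the counts of each list are to be read against these shares. The lists were not tested against each other or against all genes. Of 8 genes that supply deoxynucleotides outside the reductase, 7 were over the median gene in each elutriated experiment and 0 under it throughout, with a median of mean normal scores of 0.719 against 0.0133 for all genes tested. The highest were the thymidylate synthase gene CDC21, at percentiles 92.0, 96.5 and 97.7 and with 2 copies of ACGCGT, and the dCMP deaminase gene DCD1, at 93.8, 70.1 and 86.8. DCD1 had a median of only 6 reads in experiment 1. The lowest were the nucleoside diphosphate kinase gene YNK1 (percentiles 60.9, 19.1 and 34.7) and the uridylate kinase gene URA6 (55.3, 71.8 and 50.5). Among 18 replication genes of the G1/S wave, 7 lay above throughout and 0 below, with a median of 0.642. In that list 14 held ACGCGT and 8 held it at least 2 times. POL30, the gene of the sliding clamp PCNA, was at percentiles 99.4, 98.1 and 88.5, and RFA2 of replication protein A at 98.8, 91.1 and 92.3. CTF4 (16.6, 50.7 and 30.1) and the mismatch repair gene MSH6 (84.3, 73.1 and 4.64) were lowest. In the supply list 2 of 8 genes held ACGCGT, and among the 15 checkpoint genes described below 5 did, 4 of them at least 2 times. In the other lists below it stood before 1 of 9 genes of the thioredoxin group, 0 of 8 regulators and 0 of 9 G1/S factors. The last include CLN2.

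Of the 8 other regulators of the reductase, 7 were tested, 0 exceeded the median gene in each experiment and 3 lay under it throughout, with a median of -0.391. HUG1, which has no score in experiment 1, was the one not tested. DIF1, whose product brings the small subunit into the nucleus, was at percentiles 31.5, 86.4 and 85.3, and the importin gene KAP122 at 82.2, 29.7 and 81.7. The median read count of DIF1 in experiment 1 was only 9. The corepressor gene CYC8 (15.6, 25.9 and 8.70) and IXR1, a known regulator of RNR1 (13.7, 36.0 and 23.6), were lowest. The 15 genes of the Mec1-Rad53 checkpoint had a median of -0.0496, with 4 above throughout and 2 below. There RAD17 (74.2, 75.5 and 99.0) and TOF1 (98.7, 70.3 and 62.9) were highest, and MEC3 (33.4, 30.5 and 13.1) and DDC1 (38.1, 36.8 and 16.8) lowest. TOF1 and DDC1 rest on few reads, with medians of 7.5 and 4.5 in experiment 1.

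The 9 genes of the thioredoxin, glutaredoxin and cofactor group, which reduce the enzyme and load its iron, had a median of 0.0461, with 1 above throughout and 1 below. TAH18 (95.1, 28.8 and 92.5) and GRX4 (81.4, 63.7 and 83.8) were highest, and GRX2 (33.4, 8.80 and 47.1) and GRX1 (54.1, 22.2 and 59.4) lowest. The 9 factors of the G1/S switch had a median of 0.446, with 2 above throughout and 1 below. CLN2, a G1 cyclin gene, was at 99.8, 98.9 and 99.0, and CLN1 at 91.0, 94.9 and 75.5. SWI6 (53.8, 76.5 and 14.1) and WHI5 (4.41, 12.3 and 3.10) were lowest, WHI5 with a median of 1 read.

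**Figure D5:**
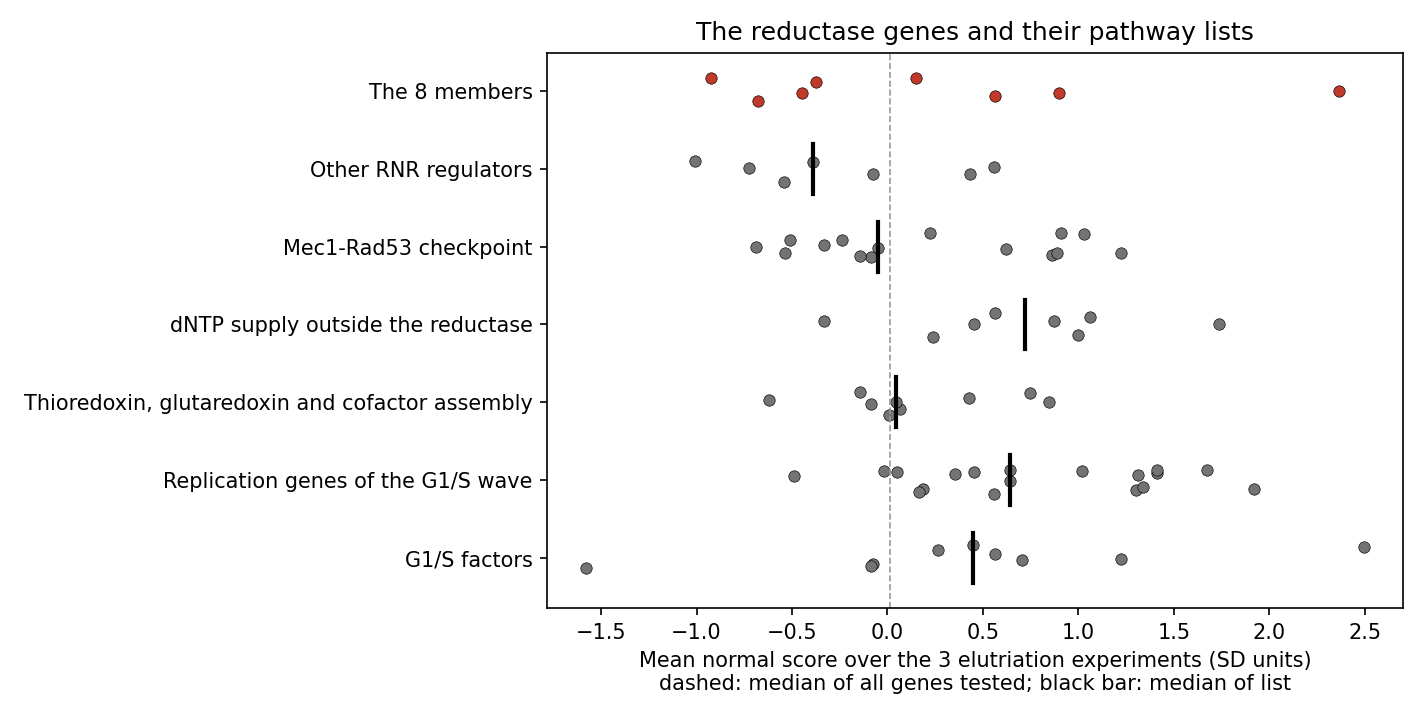
Mean normal score over the 3 elutriation experiments (horizontal axis, SD units) of the 8 reductase genes (red) and of each gene of 6 pathway lists (grey), with the list median as a black bar and the median of all genes tested as a dashed line. RNR1 at 2.36 lies to the right of the other 7 members, and the medians of the supply and replication lists, 0.719 and 0.642, lie right of the dashed line.

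The genes most like each subunit gene were those with the smallest mean absolute difference in percentile over the 6 series, among genes with at least 10 reads. For RNR1 they were SAM1 (5.16 percentile points), AXL2 (5.21) and EXG1 (6.42), of which AXL2 held 1 copy of ACGCGT and the others none. For RNR2 they were OYE2 (5.89), SDH6 (5.91) and GRR1 (7.06). For RNR3 they were LAM4 (4.57), SEC9 (6.57) and BSD2 (7.33), and for RNR4 they were MSC3 (2.69), BTS1 (5.77) and STE5 (6.71). None of the 12 was a member of the pathway lists.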

How the data were processed

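RNA was measured in 31 libraries of 6 series, grouped by their titles. Per the labels' protocols a known amount of Candida albicans cells was added before hot acid phenol extraction, and the NuGEN Ovation kit made the libraries. Reads were aligned with Bowtie2 to R64, per the submitters' processing notes. For counting, strand, normalization and the score's formula, no source used here gives a method. The authors deposited 1 scaling score per gene and series, and a median read count in experiment 1, a signal per gene that is a multiple of 0.5 in every gene.

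From these, percentiles and normal scores of ranks, (rank - 0.5) / n, were computed within each series, and limma 3.58.1 in R 4.3.3 was fitted over all genes, with p-values adjusted by Benjamini-Hochberg and called at 0.05. For elutriated arrest each score was centred on the median gene, over the 5771 genes scored in all 3 experiments. Arrest against WT used 5296 genes scored in all 6 series. The fits were tested on simulated data. Upstream sequences, coordinates (1-based) and coding identity (global alignment, Biopython 1.88) came from RefSeq R64, which matched 6022 of 6713 identifiers. Depth per library is unknown, so no counting error can be given. All members are named. From each list the 2 highest and 2 lowest by mean normal score are named, and 3 nearest patterns for each subunit gene. The members and lists were chosen with earlier results of these data known. Alternatives were no centring, scaling by the median absolute deviation (MAD), ranks, a minimum of 10 reads, all 4 Cdc28-as series, an elutriation term, and leaving out each series.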

Additional observations from a re-analysis of the deposited data

How the results depend on the processing

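No paired analysis was possible because the replicate numbers in the labels are successive sizes or times within a series, and the deposited scores carry none. For elutriated arrest limma called 0 genes under each alternative, with 154 (without experiment 2) to 1272 (ranks) at an unadjusted p under 0.05. For arrest against WT it called 0 genes under the other alternatives (525 to 895 at an unadjusted p under 0.05), and 4 genes, all lower in Cdc28-as cells and none a member, on scores scaled by the MAD. Leaving out 1 series at a time gave 0 genes in each fit. RNR1 minus the mean of RNR2 and RNR4 kept its sign throughout and lay between 2.44 and 3.12 when 1 experiment was left out.

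Signs turned for CRT10 and RNR2 in elutriated arrest and for SML1, RNR2, RNR3 and CRT10 in arrest against WT. The mean score of CRT10 in elutriated arrest, -9.46e-05 per fl over the median gene, was 0.00662 with no centring and 0.00086 with all 4 Cdc28-as series, and lay between -0.0152 and 0.0105 when 1 experiment was left out. That of RNR2, 0.00106 per fl, was -8.13e-06 among genes with at least 10 reads and -0.00338 with all 4 Cdc28-as series, and lay between -0.00492 and 0.00689 when 1 experiment was left out. RNR1 lay between 0.127 and 0.307 per fl, lowest without experiment 1. In arrest against WT the SML1 difference, 1.12, was -7.16 MAD units on scores scaled by the MAD. Leaving out 1 series moved it between -0.530 and 2.77, RNR2 between -1.63 and 0.224, RNR3 between -0.667 and 0.168 and CRT10 between -2.75 and 0.754. These 4 lowest or highest values came without 1 of the WT controls. The CRT10 value of 0.754, without unelutriated WT, sets the Cdc28-as series against the elutriated WT score alone, which describes 1 library and no trend. RNR4 (-2.09 to -0.726), WTM1 (-2.34 to -1.35), DUN1 (1.10 to 2.76) and RNR1 (0.531 to 1.17) kept their signs. The causes were not tested.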
